A study of Homo sapiens with 18 samples.

Results

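The question was what acetylcysteine, a thiol that feeds cysteine to cells and is widely used as an inhibitor of reactive oxygen species (ROS), did on its own to organoids that received neither dopamine nor cocaine. The comparison took 6 of the 18 libraries, chosen by the treatment label: 3 libraries of vehicle control and 3 libraries of vehicle with acetylcysteine, described across 18913 genes with enough reads to test. All were polyA RNA of neural organoids grown from H9, a human embryonic stem cell line, so the results come from 1 line. The organoids followed a ventral forebrain protocol with 100 ng/mL SHH and 1 µM purmorphamine, an agonist of the same pathway, from day 10. From day 83 both groups received 100 µM ascorbic acid, itself an antioxidant, every day for 1 week and again for a last 1 h before freezing, and the acetylcysteine group had 100 µM acetylcysteine in the medium before each dose. The control is therefore a medium with ascorbic acid, not an untreated culture. The other groups, each of 3 libraries, received 1 µM dopamine or 1 µM cocaine in the same vehicle, with or without the same acetylcysteine. Whether a group's 3 libraries are separate cultures is not stated in the labels. The p-values therefore measure spread among libraries, and whether this is spread among separate cultures is not known.

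Acetylcysteine is deacetylated to cysteine, the limiting amino acid for glutathione, which is made by glutamate-cysteine ligase and glutathione synthetase and kept reduced by glutathione reductase. Cells short of reduced thiols are known to switch on these genes through the transcription factor NRF2, and cells short of amino acids do so through the integrated stress response and ATF4. Cholesterol and fatty acid synthesis, a second group of genes that the results turn on, is controlled by the transcription factors encoded by SREBF1 and SREBF2, which are held in the endoplasmic reticulum by INSIG1 when sterols are plentiful and move to the nucleus when they are scarce. Neural tissue makes its own cholesterol, in development above all for growing membranes.

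Promoter windows are shown here for the sterol genes that held a perfect match to the core of the sterol regulatory element, since these genes lay on the same side of 0 in the comparison, and for TXNIP, the member of the thioredoxin system that differed most. Each window runs from 250 bases before to 50 bases after a transcription start (RefSeq, build GRCh38.p14, plus or minus strand as given) and is written 5′ to 3′ on the strand of the gene. Capitals in MVK (chr12:109573544-109573843, plus strand) and SREBF2 (chr22:41832855-41833154, plus strand) mark TCACCCCA, and capitals in TXNIP (chr1:145996530-145996829, minus strand) mark CACGNG, the letters of the E-box type that carbohydrate response elements are built from, on either strand.
MVK: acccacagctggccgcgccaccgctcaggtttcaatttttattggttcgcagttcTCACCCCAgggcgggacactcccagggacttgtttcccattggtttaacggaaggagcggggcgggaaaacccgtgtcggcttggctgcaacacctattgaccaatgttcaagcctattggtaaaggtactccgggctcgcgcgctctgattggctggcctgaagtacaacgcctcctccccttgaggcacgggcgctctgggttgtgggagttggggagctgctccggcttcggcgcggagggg
SREBF2: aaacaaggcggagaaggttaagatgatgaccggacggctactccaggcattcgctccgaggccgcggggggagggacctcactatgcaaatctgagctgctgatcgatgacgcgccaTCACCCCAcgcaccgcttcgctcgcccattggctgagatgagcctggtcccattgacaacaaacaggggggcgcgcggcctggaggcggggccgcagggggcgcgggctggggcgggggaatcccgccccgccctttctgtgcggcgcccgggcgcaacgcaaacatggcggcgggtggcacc
TXNIP: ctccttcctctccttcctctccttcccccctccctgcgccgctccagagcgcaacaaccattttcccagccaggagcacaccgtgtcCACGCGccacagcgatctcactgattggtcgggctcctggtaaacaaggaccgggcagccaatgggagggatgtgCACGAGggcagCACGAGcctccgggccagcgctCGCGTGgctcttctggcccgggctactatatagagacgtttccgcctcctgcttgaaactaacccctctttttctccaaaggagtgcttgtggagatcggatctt
The match in MVK began 195 bases before the start and that in SREBF2 133 bases before it. TXNIP held 4 matches, which began 163, 88, 77 and 55 bases before the start, and did not overlap. Of 35116 windows in the RefSeq table, 1.54% held TCACCCCA on either strand and 30.5% held CACGNG. Of the 21 sterol and fatty acid genes, 15 had a window in the table, of which 2 held TCACCCCA and 11 held CACGNG. A match is a string of letters and was not tested as a binding site.

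No gene passed the test. With edgeR's quasi-likelihood fit across 18913 genes and Benjamini-Hochberg adjustment, 0 genes (0%) had an adjusted p under 0.05, the lowest adjusted p was 0.729, and 1081 genes had an unadjusted p under 0.05, which is 5.72% of those tested. That count was 2021 without acetylcysteine library 2, 702 without acetylcysteine library 3 and 655 without control library 2. The limma-voom fit and the limma fit of log2(TPM + 1) also called 0. DESeq2 called 6 genes (0.0317% of 18904 with an adjusted p), among them FASN, DHCR7, TXNIP and HCN3 lower and MT1G higher with acetylcysteine. The median log2 fold change of all genes was 0.005, and the median absolute log2 fold change was 0.082, against 0.113 for dopamine and 0.144 for cocaine against the same 3 control libraries. In those other comparisons edgeR called 133 genes (0.703%) for dopamine and 818 genes (4.33%) for cocaine.

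The precision of this result is set by depth and by the spread between 3 libraries a group. The 6 libraries held 25501556 to 30014228 reads. For the 8791 genes with a mean of at least 20 CPM (counts per 1000000 reads), the median half-width of the 95% interval of the log2 fold change was 0.141, and for 99.5% of them the interval lay between -1 and 1. Of 255 genes that differed by 1 or more on the log2 scale in either direction, 244 had a mean under 5 CPM in the higher group, as the plot of all genes shows. Acetylcysteine library 2 stood apart from the other libraries of its group. The chi-square per gene over genes with at least 20 reads was 15.4 and 19.8 between it and acetylcysteine libraries 1 and 3, against 5.79 between those, and 5.13 to 7.42 within the controls.

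**Figure D1:**
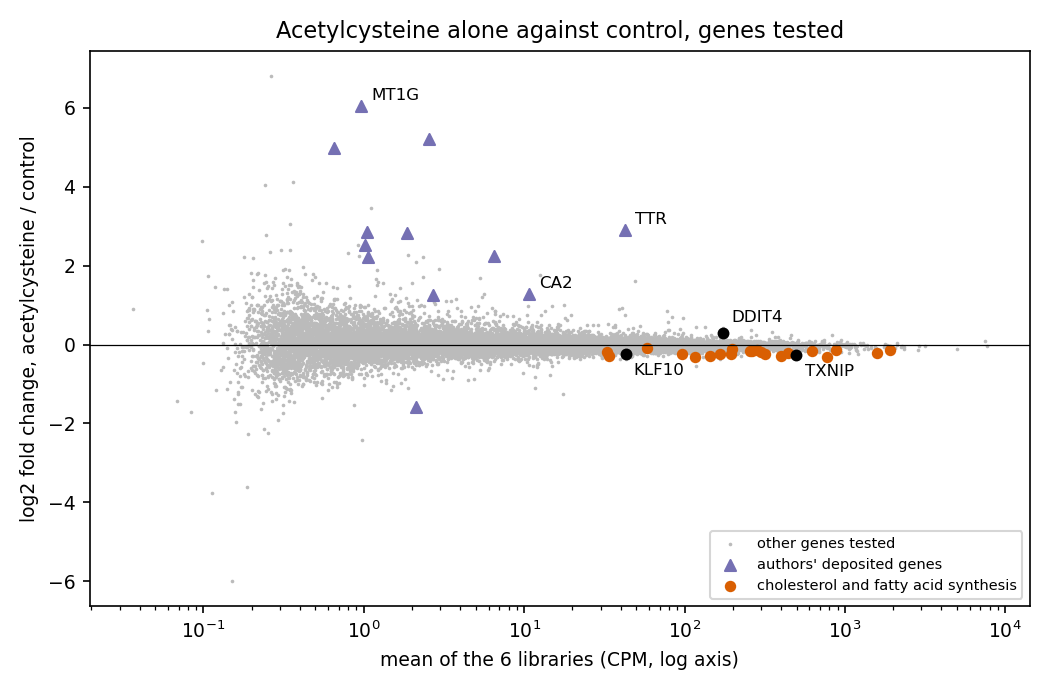
Log2 fold change of acetylcysteine over control against the mean level of the 6 libraries in CPM on a log axis, 1 point per gene tested. The genes of cholesterol and fatty acid synthesis (orange) all lie just below 0 at 35.0 CPM or more in the controls, while 11 of the 12 genes of the authors' deposited table (triangles) lie far above 0 and mostly at low levels.

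The tissue was neural. STMN2, a neuronal microtubule regulator, was at 1297 to 1452 CPM in the controls and 1210.1 to 1594 CPM with acetylcysteine. GAD1, which makes the transmitter GABA, was at 266 to 312 CPM and 263 to 338 CPM. NKX2-1, a marker of the ventral forebrain, was at 0.707 to 1.47 CPM and 0.674 to 2.80 CPM. The summed level of 21 posterior HOX genes was 211 to 379 CPM and 142 to 427 CPM. In bulk RNA, fewer cells of a type and less RNA per cell cannot be told apart.

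The genes that make and turn over glutathione differed little. Of 20 listed genes of glutathione synthesis and turnover, 19 were tested and 0 were called, 5 had a negative and 14 a positive log2 fold change, and the median was 0.02 against 0.005 for all genes. GCLC, the catalytic subunit of glutamate-cysteine ligase, was at 35.9, 36.7 and 38.5 CPM in control libraries, against 37.8, 35.9 and 39.1 CPM with acetylcysteine. The groups overlapped fully, and the log2 fold change was 0.02 with a 95% interval of -0.09 to 0.14.

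The other steps were similar in size. The log2 fold change was 0.09 (95% interval -0.08 to 0.26) for GCLM, the modifier subunit of the ligase. It was -0.03 (-0.19 to 0.12) for GSS, glutathione synthetase, and 0.01 (-0.12 to 0.15) for GSR, glutathione reductase. SLC7A11, the cystine importer that is a shared target of NRF2 and ATF4, was at 34.0, 39.6 and 37.9 CPM in control libraries, against 39.0, 38.9 and 36.2 CPM with acetylcysteine, a log2 fold change of 0.03 (-0.18 to 0.25). All 5 of these intervals spanned 0, and their farthest bound was 0.26. All 19 intervals lay within -1 and 1, and 16 lay within -0.5 and 0.5.

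The members with the lowest p in this list pointed in different directions. GGT7, a member of the gamma-glutamyltransferase family, had a log2 fold change of -0.16 (SE 0.07, unadjusted p = 0.0213, adjusted p = 0.863, edgeR), with 92.1, 89.5 and 81.9 CPM in control libraries, against 82.8, 78.0 and 74.2 CPM with acetylcysteine. ME1, a cytosolic source of NADPH, had a log2 fold change of 0.43 (SE 0.19, unadjusted p = 0.0385, adjusted p = 0.866, edgeR) at 3.33 to 4.12 CPM in the controls and 4.10 to 5.40 CPM with acetylcysteine. Both pairs of groups overlapped.

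**Figure D2:**
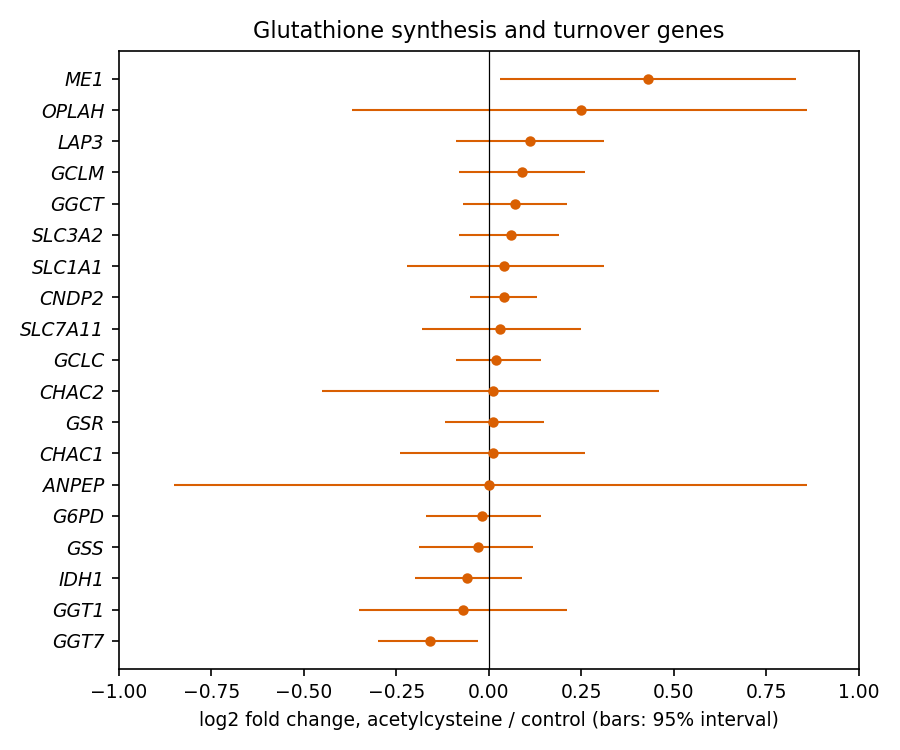
Log2 fold change of acetylcysteine over control for the 19 tested genes of glutathione synthesis and turnover, with 95% intervals from the edgeR fit. The intervals of GCLC, GCLM, GSS, GSR and SLC7A11 all span 0, and all 19 lie within -1 and 1.

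The lists of NRF2 targets, sulfur amino acid genes, oxidative phosphorylation and the unfolded protein response had medians near 0. The integrated stress response list, described with DDIT4 below, had a median of 0.10 with 17 of 20 genes positive, beside 51.7% of all genes. The 24 listed NRF2 targets had a median log2 fold change of 0.02, with 0 called, and 3 of them had an unadjusted p under 0.05 and a higher level, beside 2.89% of all genes tested. These were NQO1, a quinone reductase, at 7.14 to 9.78 CPM in the controls and 9.04 to 12.8 CPM with acetylcysteine, AKR1B10, an aldo-keto reductase, at 1.84 to 3.29 and 3.72 to 5.02 CPM, and ME1. HMOX1, haem oxygenase, was at 5.08 to 5.46 CPM and 5.98 to 6.74 CPM, a log2 fold change of 0.25 (SE 0.13, adjusted p = 0.893, edgeR). The 20 genes of the cysteine and sulfur amino acid list had a median of 0.02, the 34 nuclear subunits of oxidative phosphorylation a median of 0.00 and the 15 genes of the unfolded protein response a median of 0.03.

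The thioredoxin and glutaredoxin list held 1 gene that stood apart. Of 20 genes tested, 0 were called, 7 had a negative log2 fold change, and the median was 0.02. TXNIP (chr1:145992435-145996579, GRCh38.p14), which binds and inhibits thioredoxin and restrains glucose uptake, was at 526, 548 and 551 CPM in control libraries, against 452, 479 and 427 CPM with acetylcysteine. All acetylcysteine libraries lay below all controls, and below all 12 libraries of the dopamine and cocaine groups, which ran from 489 to 678 CPM. The log2 fold change was -0.26 (SE 0.06, 95% interval -0.37 to -0.14, unadjusted p = 0.000189, adjusted p = 0.729, edgeR), and the DESeq2 adjusted p was 0.0221. Across the alternative fits its value ran from -0.31 to -0.22.

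The genes of cholesterol and fatty acid synthesis lay on 1 side. All 21 listed genes were tested, at 35.0 to 2010 CPM in the controls, and 0 were called by edgeR. DESeq2 called 3 of the 21, beside 6 of all genes (0.0317%). All 21 had a negative log2 fold change, from -0.32 to -0.10, and the median was -0.21, where 48.3% of all genes tested were negative and the median was 0.005. An unadjusted p under 0.05 with a lower level was found for 19 of the 21, beside 2.83% of all genes tested. That count was 15 of the 21 when only the 6 libraries compared were fitted, beside 2.83% of all genes in that fit. It was also 15 without control library 1 and without control library 2, beside 2.29% and 1.6% of all genes. The groups did not overlap, with acetylcysteine lower, for 12 of the 21, beside 5.52% of all genes. Genes of 1 pathway are not independent of each other, and the list was given no p of its own. It was the only list, of 45 with at least 5 tested members, in which every member had the same sign.

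The regulators of the pathway were among them. SREBF1, the factor that drives fatty acid genes, was at 37.2, 38.8 and 35.1 CPM in control libraries, against 31.3, 30.7 and 28.5 CPM with acetylcysteine, without overlap, and its log2 fold change was -0.29 (SE 0.08, adjusted p = 0.823, edgeR). SREBF2, the factor that drives cholesterol genes, was at 917, 954 and 901 CPM and at 801, 909.9 and 791 CPM, with overlap through acetylcysteine library 2. INSIG1, the retention protein and itself a target of the pathway, was at 157, 163 and 154 CPM and at 125, 142 and 122 CPM, without overlap, a log2 fold change of -0.28 (SE 0.07, adjusted p = 0.823, edgeR).

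In the mevalonate arm, HMGCS1, which makes HMG-CoA, was at 1760.5, 1709 and 1624 CPM in control libraries, against 1348, 1678 and 1348 CPM with acetylcysteine. The log2 fold change was -0.22 for HMGCS1, -0.19 for MVK, mevalonate kinase, -0.32 for MVD, the decarboxylase, -0.16 for IDI1, the isomerase, and -0.25 for FDPS, which makes farnesyl diphosphate.

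In the sterol arm, FDFT1, squalene synthase, was at 437, 451 and 425 CPM in control libraries, against 340, 399 and 331 CPM with acetylcysteine, without overlap, a log2 fold change of -0.30 (SE 0.07, unadjusted p = 0.000544, adjusted p = 0.823, edgeR). DHCR7, which makes the last step of 1 branch to cholesterol, was at 181, 186 and 176 CPM and at 146, 164 and 149 CPM, without overlap, a log2 fold change of -0.24 (SE 0.05, unadjusted p = 0.000153, adjusted p = 0.729, edgeR). The values were -0.14 for SQLE, squalene epoxidase, -0.20 for LSS, lanosterol synthase, and -0.12 for SC5D, a desaturase. TM7SF2, a sterol reductase that was not on the list, was at 49.5 to 53.2 CPM and 44.0 to 44.4 CPM, a log2 fold change of -0.22. It was named for its low unadjusted p in the lower direction, so its sign is no separate support for the list.

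In the fatty acid arm, FASN (chr17:82078338-82098236, GRCh38.p14), fatty acid synthase, was at 875, 899 and 803 CPM in control libraries, against 674, 729 and 675 CPM with acetylcysteine. The groups did not overlap, and the log2 fold change was -0.31 (SE 0.06, 95% interval -0.45 to -0.18, unadjusted p = 0.000131, adjusted p = 0.729, edgeR), with a DESeq2 adjusted p of 0.0221. SCD, the desaturase, was at 1925 to 2060.1 CPM and 1792 to 1844 CPM, without overlap, a log2 fold change of -0.15. ACLY, which supplies acetyl-CoA, was at -0.21, ACACA, acetyl-CoA carboxylase, at -0.15 and ELOVL6, an elongase, at -0.10 on the same scale.

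The libraries did not contribute alike. Each library's median log2 ratio to the mean of the controls, over the 21 genes, was 0.03, 0.01 and -0.04 in the controls and -0.29, -0.09 and -0.27 in acetylcysteine libraries 1 to 3. Acetylcysteine libraries 1 and 3 lay below all controls for all 21 genes, and acetylcysteine library 2 was the highest of its group for 20 of them. Without acetylcysteine library 2 the median was -0.28 and 21 genes had an unadjusted p under 0.05. Without acetylcysteine library 1 it was -0.17 with 12 such genes, and without library 3 it was -0.18 with 13. Library 2 also held the highest summed level of 16 pan-neuronal genes, 15176 CPM against 12889 and 12539 CPM in libraries 1 and 3 and 13622 to 14399 CPM in the controls, and the part of this difference in the sterol values was not tested.

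**Figure D3:**
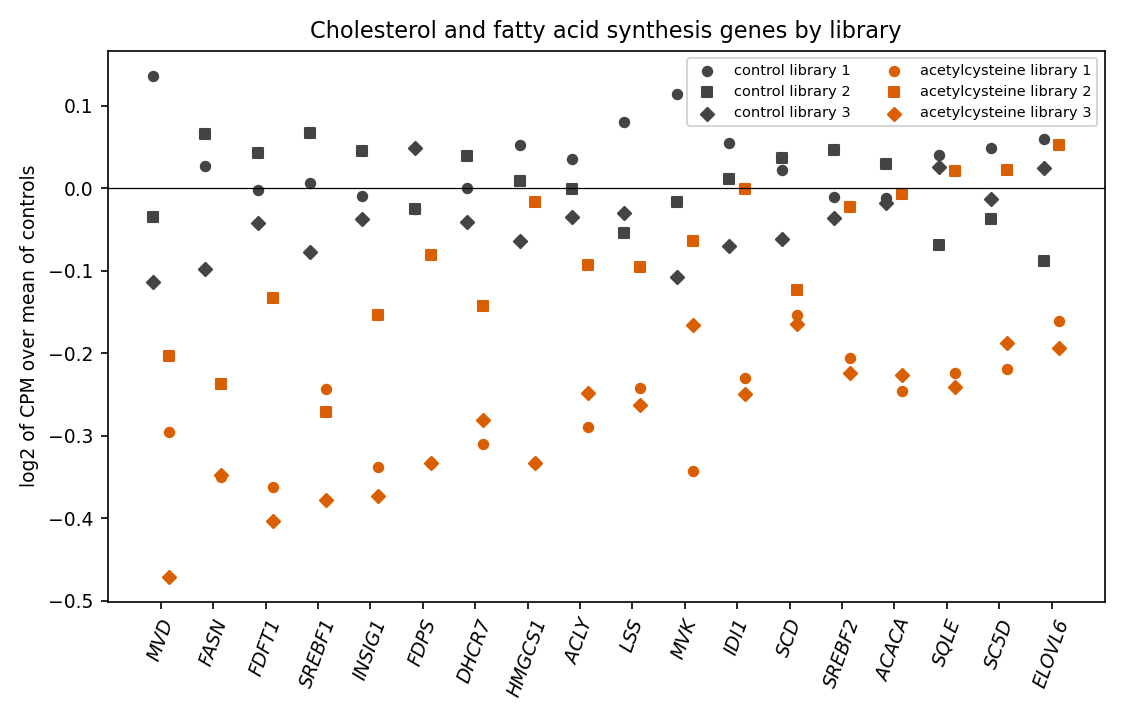
Log2 of each library's CPM over the mean CPM of the 3 controls for 18 of the 21 genes of cholesterol and fatty acid synthesis, ordered by fold change; grey marks are controls, orange marks acetylcysteine, and the mark's shape is the library. Acetylcysteine libraries 1 and 3 lie below every control for every gene, and library 2 is the highest of its group for every gene shown but SREBF1.

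The other 12 libraries show on which side each gene was unusual. For FASN and ACACA, all 12 libraries of the dopamine and cocaine groups lay below the lowest control, and for FASN the acetylcysteine libraries did too, so that its controls were the highest of 18. FASN was at 666 to 800.4 CPM in those 12, which takes in the acetylcysteine range of 674 to 729 CPM. For SCD and SREBF1, all 12 lay above the highest acetylcysteine library, so that acetylcysteine alone was the lowest of 18. At least 6 of the 12 lay below the lowest control for 12 of the 21 genes.

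Acetylcysteine given with a drug used other libraries on both sides and shares none with the comparison here. Against dopamine alone, acetylcysteine with dopamine gave a negative log2 fold change for 19 of the 21 genes, a median of -0.16, and a lower level with an unadjusted p under 0.05 for 11, beside 4.24% of all genes. In that comparison 1 gene was called of all tested (0.00529%), and it was not a sterol gene, while DESeq2 called 33, of which 3 were on the list. Against cocaine alone, acetylcysteine with cocaine gave 10 negative values of 21, a median of 0.00 and 0 genes with a lower level and an unadjusted p under 0.05, beside 1.42% of all genes, and 0 genes of all tested were called (0%, edgeR), 608 having an unadjusted p under 0.05.

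The difference between these effects was tested by interaction terms. Both terms subtract the values with acetylcysteine alone, which were negative for all 21 genes. A positive sign over the list, and the count of positive values with a low p, are therefore partly built in and are no separate support. For cocaine minus alone, all 21 genes were positive with a median of 0.23, and 12 had an unadjusted p under 0.05, beside 2.4% of all genes. No gene of any kind was called in that test (0%), where edgeR found 995 genes at an unadjusted p under 0.05 and DESeq2 called 4, none of them on the list. For dopamine minus alone, the median over the list was 0.09, and 4 of the 21 had a positive value and an unadjusted p under 0.05, beside 4.55% of all genes. FASN differed in that test by 0.30 (SE 0.09, adjusted p = 0.446, edgeR), being -0.01 with dopamine and -0.31 alone, while INSIG1 was -0.34 with dopamine and -0.28 alone, SCD -0.23 and -0.15, and IDI1 -0.30 and -0.16.

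The 10 genes with the lowest unadjusted p in the lower direction, at 5 CPM or more, included FASN, DHCR7, TXNIP, FDFT1, TM7SF2 and INSIG1 from above, and HCN3, KLF10 and FAM189B. HCN3, a hyperpolarization-activated channel, was at 189, 196 and 172 CPM in control libraries, against 148, 156 and 129 CPM with acetylcysteine, a log2 fold change of -0.36 (SE 0.07, unadjusted p = 9.49e-05, adjusted p = 0.729, edgeR). All 12 drug libraries were also below the lowest control, at 139 to 161 CPM. KLF10, a transcription factor induced by TGF-beta, was at 44.5, 46.2 and 48.9 CPM and at 41.0, 38.2 and 38.5 CPM, a log2 fold change of -0.25 (SE 0.06, adjusted p = 0.823, edgeR), and all 12 drug libraries were above the highest acetylcysteine library, at 45.5 to 56.5 CPM. FAM189B was at -0.22 and its controls, like those of HCN3, were the highest of 18.

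The 10 with the lowest unadjusted p in the higher direction each had an adjusted p of 0.823. Their groups did not overlap, which the choice by lowest p makes likely and which is no support for them; of all genes, 5.5% did not overlap in this direction. FAM13B was at 91.6, 81.1 and 88.7 CPM in control libraries, against 101, 119 and 103 CPM with acetylcysteine, a log2 fold change of 0.30 (SE 0.07). SEC11A, a catalytic subunit of the signal peptidase, was at 0.24, CLK1, a kinase of splicing factors, at 0.23, and UMPS, which completes pyrimidine synthesis, at 0.26. The values were 0.96 for LINC00982, a noncoding RNA, 0.38 for HS3ST3B1, a heparan sulfate sulfotransferase, 0.35 for AVEN, an inhibitor of apoptosis, 0.23 for FAM210A and 0.20 for EPHA7, an ephrin receptor. For FAM13B, SEC11A, LINC00982, CLK1, UMPS and AVEN, no drug library lay above the highest acetylcysteine library.

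DDIT4 (chr10:72273924-72276036, GRCh38.p14), also among those genes, encodes an inhibitor of the growth kinase mTORC1 and is induced by ATF4 and by low oxygen. It was at 147, 168 and 150 CPM in control libraries, against 197, 181 and 193 CPM with acetylcysteine. The groups did not overlap, and the log2 fold change was 0.30 (SE 0.07, unadjusted p = 0.00065, adjusted p = 0.823, edgeR). With dopamine the direction was the opposite: 214, 204 and 213 CPM with dopamine alone and 146, 160 and 134 CPM with dopamine and acetylcysteine, a log2 fold change of -0.52 (SE 0.07, adjusted p = 0.0208, edgeR). With cocaine it was 176, 189 and 212 CPM and 191, 184 and 203 CPM, a log2 fold change of 0.01.

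The difference between the effect with dopamine and the effect alone was -0.82 (SE 0.10, 95% interval -1.04 to -0.60, adjusted p = 0.00457, edgeR), and DDIT4 was the only gene called in that test (0.00529%, edgeR), where DESeq2 called 18. The 3 acetylcysteine libraries all lay above the 3 controls, and the 3 libraries with dopamine and acetylcysteine all lay below the 3 with dopamine. Dopamine alone against control gave 0.44 (SE 0.07, adjusted p = 0.00952, edgeR), and shares the control libraries with the comparison here. The other 19 genes of the integrated stress response list had values from -0.09 to 0.30 with acetylcysteine alone, of which 0 were called, 16 were positive, beside 51.7% of all genes, and the median was 0.07. The summed level of the list, DDIT4 included, was 1199, 1230.3 and 1225 CPM in control libraries, against 1343, 1239 and 1349.5 CPM with acetylcysteine. These did not overlap, as was so for 5 of 28 pathway lists, and acetylcysteine library 2 lay close to the controls. With the CPM of DDIT4 taken out, acetylcysteine library 2 lay within the range of the controls, while libraries 1 and 3 stayed above it. The lack of overlap therefore rested on DDIT4 in library 2. TRIB3, a pseudokinase induced by ATF4, was at 16.1 to 19.8 CPM and 19.3 to 20.3 CPM.

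**Figure D4:**
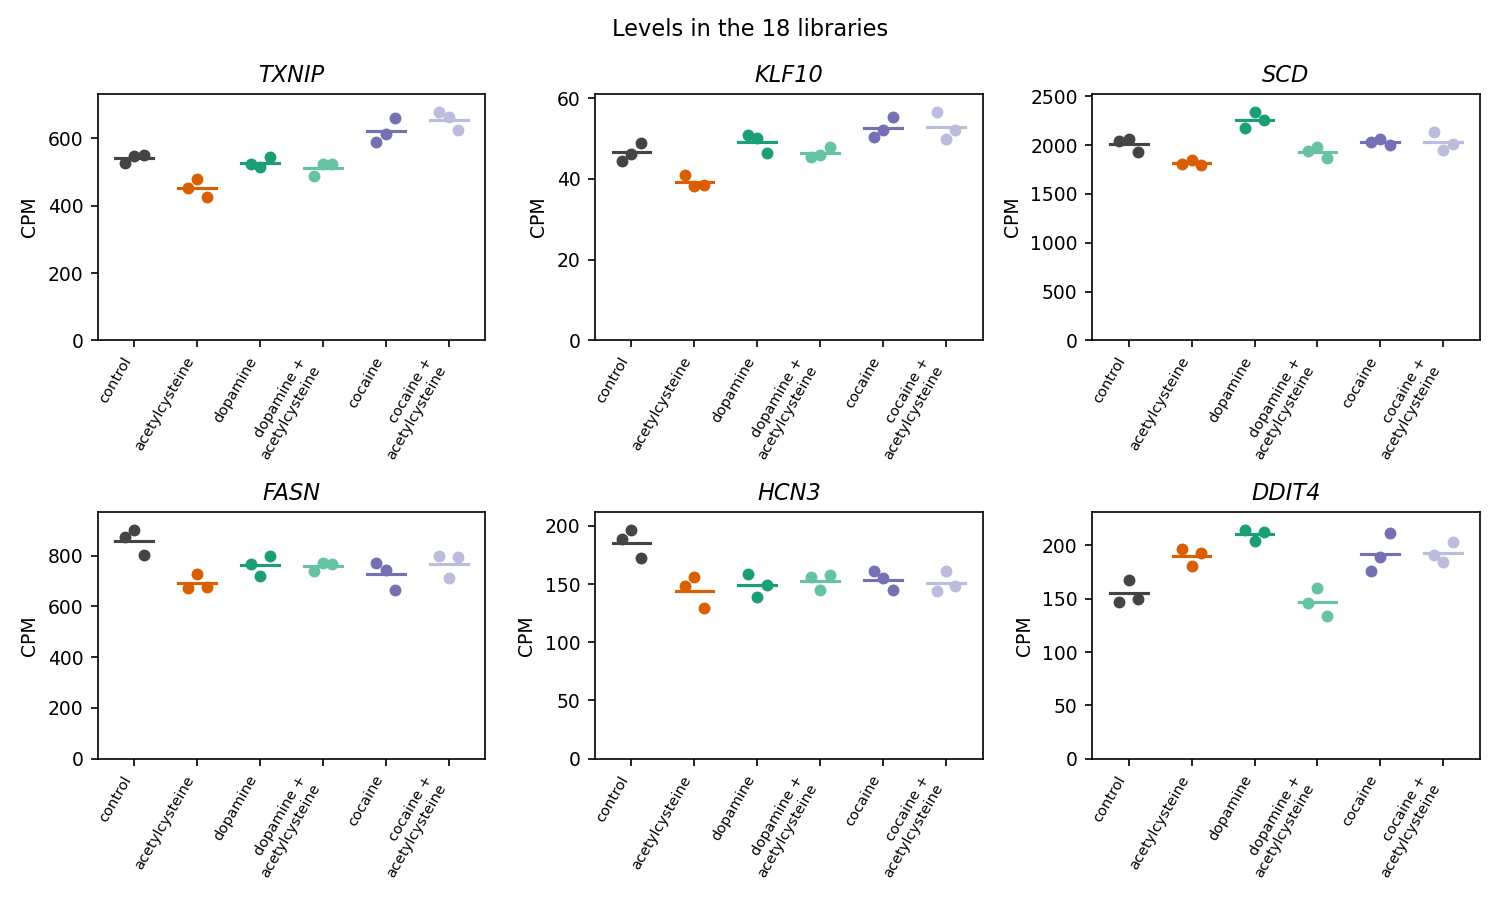
Level in CPM of 6 genes in each of the 18 libraries, with a line at each group's mean. The acetylcysteine libraries are the lowest for TXNIP, KLF10 and SCD, the controls are the highest for FASN and HCN3, and DDIT4 is higher with acetylcysteine alone but lower with acetylcysteine and dopamine than with dopamine.

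The authors' deposited table of control with the ROS inhibitor lists 12 genes, of which 11 are higher and 1, LOC102723360, is lower. Its header does not name the comparator; log2 ratios of group mean TPM to the control differed from the deposited log2 fold changes by a median of 0.0217, against 1.35 to 2.49 for the other groups. In the edgeR fit none of the 12 was called, with adjusted p from 0.823 to 0.940, and 9 had an unadjusted p under 0.05. Of the 12, 9 had a mean under 5 CPM in both groups.

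Acetylcysteine libraries 1 and 3 lay above all controls for 10 of the 12, and library 2 lay within the range of the controls for 4. For 6 of the 12, LOC102723360 among them, the groups did not overlap. TTR, the thyroxine carrier secreted by choroid plexus, reached 1.32, 7.44 and 21.1 CPM in control libraries, against 79.7, 5.92 and 139 CPM with acetylcysteine, so the groups overlapped, and the log2 fold change was 2.90 (SE 1.13, adjusted p = 0.864, edgeR). The authors' deposited table gives TTR a log2 fold change of 2.91 and an FDR p-value of 0.02. CLIC6, a chloride channel protein of choroid plexus, stood at 1.09, 2.16 and 3.50 CPM and at 11.3, 1.06 and 19.7 CPM. CA2, a carbonic anhydrase, was at 3.95, 5.49 and 9.17 CPM and at 18.6, 7.52 and 19.4 CPM. Library 2 was the lowest acetylcysteine library for 9 of the 12 genes.

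Others were uneven among the acetylcysteine libraries, HOXA9 and TRABD2B resting mostly on library 1. HOXA9, a posterior HOX factor, was at 3.61 CPM in acetylcysteine library 1 and at 0.0709 and 0.116 CPM in libraries 2 and 3, with 3 reads in all controls together against 107, a ratio of 36.4 with a counting interval (95%, exact binomial) of 12.1 to 179. TRABD2B was at 4.56 CPM in library 1 and 0.638 and 0.309 CPM in the others, beside 0.202 to 0.325 CPM in the controls. MT1G, a metallothionein that shares near-identical copies with its family so that its reads are uncertain, was at 0.814, 0.106 and 4.75 CPM, with 2 reads in all controls together against 149, a ratio of 76.0 (20.7 to 633), counting error only. The drug libraries held MT1G at 0.165 to 2.92 CPM, all above the controls. CDC27P9, a pseudogene, was at 0, 0.370 and 0 CPM and at 6.30, 0.851 and 7.80 CPM, without overlap.

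**Figure D5:**
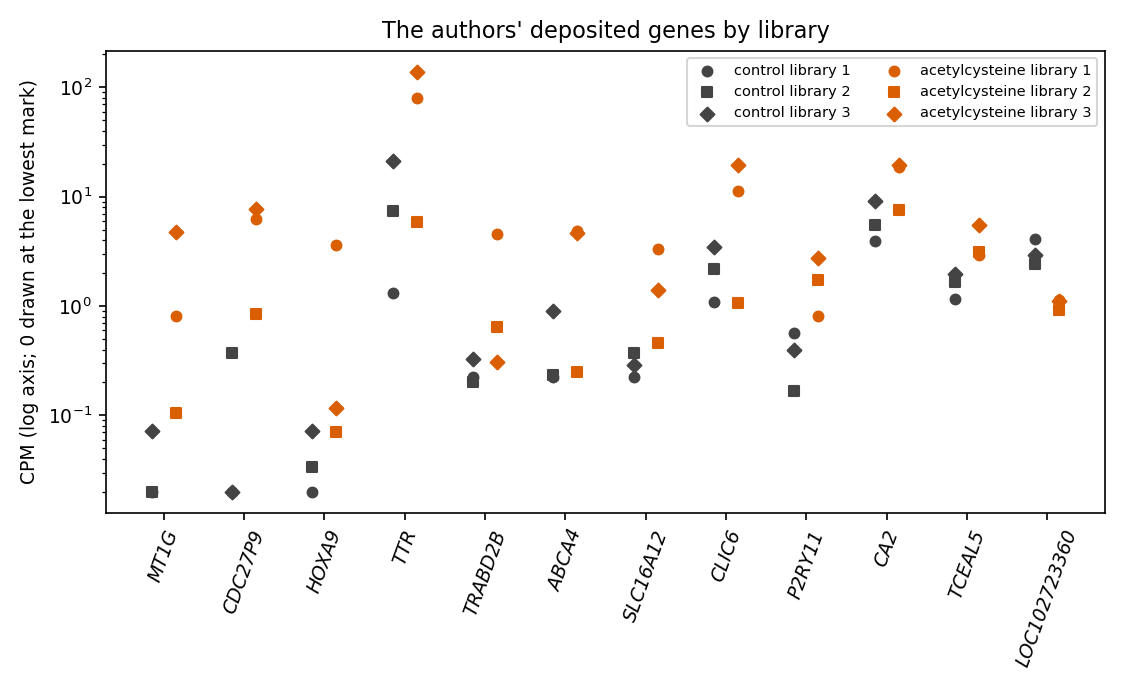
Level in CPM on a log axis of the 12 genes of the authors' deposited table in the 3 control (grey) and 3 acetylcysteine (orange) libraries, with the shape giving the library and 0 drawn at the lowest mark. For TTR, CLIC6, CA2 and ABCA4, acetylcysteine libraries 1 and 3 are high and library 2 lies within or just below the range of the controls, and HOXA9 is high in library 1 alone.

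The choroid plexus list was high in the same libraries. It holds 15 genes, TTR and CLIC6 among them, of which 14 had a positive log2 fold change with a median of 0.56, and 6 had an unadjusted p under 0.05 and a higher level, beside 2.89% of all genes. KCNJ13, a potassium channel of choroid plexus, stood at 0.376, 0.876 and 1.12 CPM in control libraries, against 4.35, 0.390 and 5.52 CPM with acetylcysteine. KL, klotho, was at 0.226, 0.370 and 0.505 CPM and at 1.42, 0.851 and 0.734 CPM, without overlap. The summed level of the list was 176, 217 and 239 CPM in control libraries, against 350.1, 192 and 427 CPM with acetylcysteine, a difference of 0.55 in mean log2 level that overlapped between groups (exact permutation test, two-sided, p = 0.3, 1 after Benjamini-Hochberg adjustment over 19 cell type lists). The smallest p this design allows is 0.1. Libraries without acetylcysteine also reached or passed the controls, at 263, 287 and 275 CPM with dopamine and 539.5, 239 and 447 CPM with cocaine. Against the same controls, the list's median log2 fold change was 0.35 for dopamine and 0.85 for cocaine. Acetylcysteine added to dopamine gave 4 negative values of 15 and a median of 0.16. Added to cocaine, it gave 15 negative values of 15 and a median of -0.51. The same libraries 1 and 3 that were high for this list lay below all controls for the sterol genes, and a link between them was not tested.

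No cell type list separated the groups. Of 19 lists, all had summed levels that overlapped between the 3 controls and the 3 acetylcysteine libraries. The mean log2 level differed by -0.05 for pan-neuronal genes (p = 0.6, exact permutation test), -0.10 for ventral forebrain and interneuron genes (p = 0.4), 0.02 for radial glia (p = 0.7) and 0.07 for astrocytes (p = 0.5), each 1 after adjustment. Of 29 presynaptic and scaffold genes, 0 were called and 27 were negative with a median of -0.07, beside 48.3% negative of all genes. An unadjusted p under 0.05 and a lower level was found for 4, beside 2.83% of all genes. Drugs without acetylcysteine, against the same controls, gave 27 negative for dopamine (median -0.15) and 29 for cocaine (median -0.30). Acetylcysteine added to dopamine gave 4 negative of 29 (median 0.07), and added to cocaine also 4 (median 0.06). Among 18 monoamine genes tested, 0 were called, and log2 fold changes ran from -0.31 to 1.10 with a median of 0.12. Of these, 1 had an unadjusted p under 0.05 and a higher level, beside 2.89% of all genes. It was the highest of the list, DRD1, a dopamine receptor, with a log2 fold change of 1.10 (SE 0.33, unadjusted p = 0.00435, adjusted p = 0.823, edgeR). DRD1 was at 2.03, 1.99 and 2.20 CPM in control libraries, against 6.90, 3.08 and 3.36 CPM with acetylcysteine, without overlap. Acetylcysteine library 1 was the highest by far.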

How the data were processed

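The authors deposited counts of reads per gene as whole numbers without normalization, and TPM values beside them, per the file headers. The build was GRCh38, per the submitters' processing notes. The aligner, counter, strand setting and annotation are not stated in these sources, so overlapping and antisense genes cannot be separated and copies of multigene families are uncertain. The authors' deposited table of this comparison gives, per the file headers, a group mean signal (unit not stated), a log2 fold change, a signed fold score and p-values.

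Of 53853 genes (28 with names turned into dates, 2 duplicated), 18913 passed edgeR's filter at a minimum count of 10. Counts of all 18 libraries were scaled by TMM and fitted with edgeR 4.0.16 (quasi-likelihood, robust, 1 mean per group, R 4.3.3), with Benjamini-Hochberg adjustment over all genes and a threshold of 0.05. CPM are TMM-scaled. Intervals are 95%, from the standard error and the fit's degrees of freedom, and intervals on read counts cover counting error only. Interaction terms tested whether the acetylcysteine effect differed with dopamine or cocaine. Summed marker levels were compared by exact permutation tests (scipy 1.17.1). DESeq2 1.42.0 and limma 3.58.1 (voom, and log2(TPM + 1) at a mean TPM of at least 1) were alternatives. The fits were tested on 1 simulated data set, where DESeq2 made 20 false calls and edgeR 9. DESeq2 recovered 78.9% of changes of 1 on the log2 scale and edgeR 77.9%. Genes were drawn independently, with changes of 1 or 2, so the simulation does not bear on smaller, shared differences like those of the sterol genes.

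Named genes were the 10 lowest p in each direction at 5 CPM or more, those of the authors' table, the glutathione list and the 3 lowest p of each list described. Genes used to check the tissue label were added after their values were seen. Members and lists were chosen with earlier results of these data known. Library numbers 1 to 3 only name the libraries. The labels give no batch, and another cell line was not analysed here. Some genes are not reported here by name, though counts and medians over lists include them.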

Additional observations from a re-analysis of the deposited data

Results flagged for a closer look

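DDIT4 was flagged because the effect of acetylcysteine differed between contexts by a test of the difference itself. The log2 fold change was 0.30 alone and -0.52 with dopamine, and the interaction was -0.82 (SE 0.10, adjusted p = 0.00457, edgeR). All 3 libraries of each acetylcysteine group lay on the same side of the 3 libraries without it, above them alone and below them with dopamine.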

How the results depend on the processing

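The count of 0 changed genes held in 13 of 14 alternatives, among them each of the 6 that left out a library, and became 6 with DESeq2. The counts of genes whose acetylcysteine effect differed became 18 for dopamine and 4 for cocaine with DESeq2, in place of 1 and 0, and stayed at 1 and 0 over all libraries left out. The cause was not tested. Genes at an unadjusted p under 0.05, 1081 in all, were 655 to 2021 with a library left out. The DDIT4 difference was called in 12 of 12 alternatives, from -0.88 to -0.78, with adjusted p from 5.92e-10 to 0.0333. The median of the sterol and fatty acid list was -0.28 to -0.17 with a library left out. The choroid plexus difference was 0.31 to 0.89 with a library left out. Values near 0 changed sign for 4 glutathione genes: with a library left out, GCLC ran from 0 to 0.04, GSS from -0.11 to 0.01, GSR from -0.01 to 0.04 and SLC7A11 from -0.03 to 0.08. No paired analysis was possible because the labels give no replicate number shared between groups. At this depth a gene under 5 CPM rests on few reads, and most large fold changes were of such genes.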
